A study of Rattus norvegicus with 3 samples.

Results

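The genes described here encode the slow-fibre forms of the contractile proteins of skeletal muscle: the myosin light chains Myl2 and Myl3, the troponin subunits Tnnt1, Tnni1 and Tnnc1, the tropomyosin Tpm3 and the Z-disc protein Myoz2. Their probe sets were taken by annotation alone, as every probe set named for 1 of these 7 genes and for no other gene. They are 7 of the 14217 genes so named on the array. The rule gave 20 of its 31099 probe sets, of which 12 belong to Tpm3, 2 each to Myl2 and Tnni1, and 1 each to Myl3, Tnnt1, Tnnc1 and Myoz2. No probe set named for several genes held a member.

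The tissue was the soleus, a postural muscle of the hind limb, from white Sprague-Dawley rats aged 8 weeks. The 3 groups were a control group fed normally and labelled 7 days, and groups under hind limb suspension for 7 days or 14 days. Suspension was by taping the tail so that the body hung at an angle of about 30 degrees, which takes the load off the hind limbs and serves as a model of weightlessness. A mixture of 4 samples per group was measured on 1 array, so no spread between rats was measured and no test was made. The time entry and title of the 14-day sample were followed, since its source entry names 7 days. With no 14-day control used here, 7 more days of age and 7 more days of suspension cannot be told apart, and in whole muscle RNA neither can fewer slow fibres and less of a transcript per fibre.

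Slow fibres contract with their own set of sarcomere proteins. The light chains sit on the neck of the myosin head, troponin and tropomyosin form the calcium-dependent switch on the thin filament, and Z-disc proteins anchor the thin filaments. Most of these proteins have a fast-fibre form encoded by another gene, and muscles that bear load for long periods, such as the soleus, are rich in the slow forms. Tpm3 differs from the other genes in that it also gives short tropomyosins of non-muscle cells from an internal start.

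The bright probe sets of all 7 genes lay lower at 14 days, and the upstream sequences of 4 of the genes are shown. Of the 7 genes, 5 matched RefSeq's promoter table (build GRCr8), with 7 start sites in all. Tpm3 has 3 of these, whose sequences are not printed, and Myl2 and Tnnc1 did not match. The 250 bases before the start are printed 5′ to 3′ on the strand of the gene, at chr1:78348785-78349034 (plus strand) for Tnnt1, chr13:49781279-49781528 (plus strand) for Tnni1, chr8:119616844-119617093 (plus strand) for Myl3 and chr2:213852779-213853028 (minus strand) for Myoz2. Capitals mark the letters of an E-box, a MEF2 site, a CArG box or an MCAT element.
Tnnt1: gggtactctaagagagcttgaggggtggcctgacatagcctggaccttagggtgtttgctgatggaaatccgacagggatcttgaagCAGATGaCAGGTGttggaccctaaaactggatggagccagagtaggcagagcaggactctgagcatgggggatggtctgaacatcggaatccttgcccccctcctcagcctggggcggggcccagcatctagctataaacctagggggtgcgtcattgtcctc
Tnni1: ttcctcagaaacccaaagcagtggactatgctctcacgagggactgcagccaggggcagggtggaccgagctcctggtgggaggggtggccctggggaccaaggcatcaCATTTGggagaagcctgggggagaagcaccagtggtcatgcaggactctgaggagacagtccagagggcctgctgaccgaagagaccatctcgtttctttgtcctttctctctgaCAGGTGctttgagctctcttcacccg
Myl3: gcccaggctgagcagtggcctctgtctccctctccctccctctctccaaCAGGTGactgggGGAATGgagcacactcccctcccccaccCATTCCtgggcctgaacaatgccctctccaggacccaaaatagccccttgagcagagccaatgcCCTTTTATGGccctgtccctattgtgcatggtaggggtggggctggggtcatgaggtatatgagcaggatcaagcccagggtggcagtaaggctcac
Myoz2: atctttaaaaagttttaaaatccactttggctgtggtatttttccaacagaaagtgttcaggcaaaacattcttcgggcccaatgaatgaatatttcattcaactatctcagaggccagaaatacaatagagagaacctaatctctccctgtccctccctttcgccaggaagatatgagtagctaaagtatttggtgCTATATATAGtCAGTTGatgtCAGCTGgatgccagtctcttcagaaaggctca

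The Myoz2 window held a MEF2 site, the letters bound by the MEF2 factors of muscle genes, as CTATATATAG from 53 to 44 bases before the start, followed by E-boxes at 42 and 32 bases before it. Of all 33469 windows of this length, 2.96% held a MEF2 site on either strand. The Myl3 window held a CArG box, the letters bound by serum response factor, as CCTTTTATGG from 97 to 88 bases before the start, found in 501 of the 33469 windows. It also held MCAT elements (CATTCC) on each strand, against 12.1% of windows. E-boxes (CANNTG, which reads the same on both strands) were in 5 of the 7 member windows, 1 for each of the 5 genes, and in 65.5% of all windows. A TATA box (TATAAA) stood 30 bases before the start of Tnnt1, against 12.9% of windows. CACCC boxes (CCACCC) were in 6 of the 7 member windows, from 4 genes, all but Myoz2, against 26.1% of windows. The NFAT element TGGAAA was in 4 of the 7, from Myoz2, Tnnt1 and Tpm3, against 19.7%. Tpm3 has several windows, some of which overlap. A CACCC box of Myl3 shares a base with its MCAT element. A match is a description of letters and not of a bound site.

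All values are log2 signals per probe set as the authors deposited them. A probe set is called bright here when it reached a log2 signal of 15 on at least 1 array, which is close to the top of the scale: the highest signals were 15.94 on the control array, 16.03 on the 7-day array and 15.87 on the 14-day array. Each member gene had a bright probe set, 8 in all, and 12 member probe sets were dimmer, 11 of Tpm3 and 1 of Myl2. All 20 reached the floor, a log2 signal of 6.01, on at least 1 array. Signals so near the top of an array's scale are known to understate differences, and for Myl2 and Tpm3 alone a dimmer probe set could be set beside a bright one. The only error available was technical and came from genes with paired probe sets. At mean signals of 12 and above (110 pairs) the SD of a log2 difference from control was 0.18 on the 7-day and 0.23 on the 14-day array, and that between the suspended arrays was 0.16. It was 0.34, 0.35 and 0.28 at signals from 8 to 10 (1174 pairs).

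After 14 days of suspension all 8 bright slow-fibre probe sets stood below control, and after 7 days they stood on either side of it, from -0.41 (Tpm3) to 0.058 (Tnnt1). At 7 days 5 of the 8 lay below control, with a median log2 difference of -0.090, where 46.4% of the 84 bright probe sets of the array lay below it. At 14 days the median was -0.38 and the range -1.18 to -0.23. Of all bright probe sets 73.8% lay below control at 14 days, so 8 of 8 is to be read against a high background; the 76 bright probe sets of other genes had a median of -0.13. A difference of at least 1.5-fold downward was reached by none of the 8 at 7 days (background 2.38%) and by 2 at 14 days, Tpm3 and Myoz2 (background 9.52%). Under quantile normalization Myoz2 was at -0.56, short of 1.5-fold, which left Tpm3 alone. Between the suspended pools all 8 were lower at 14 days, by a median of -0.35, where 89.3% of bright probe sets were lower, the median of the other 76 was -0.10 and 4.76% of all bright probe sets were 1.5-fold lower.

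**Figure D1:**
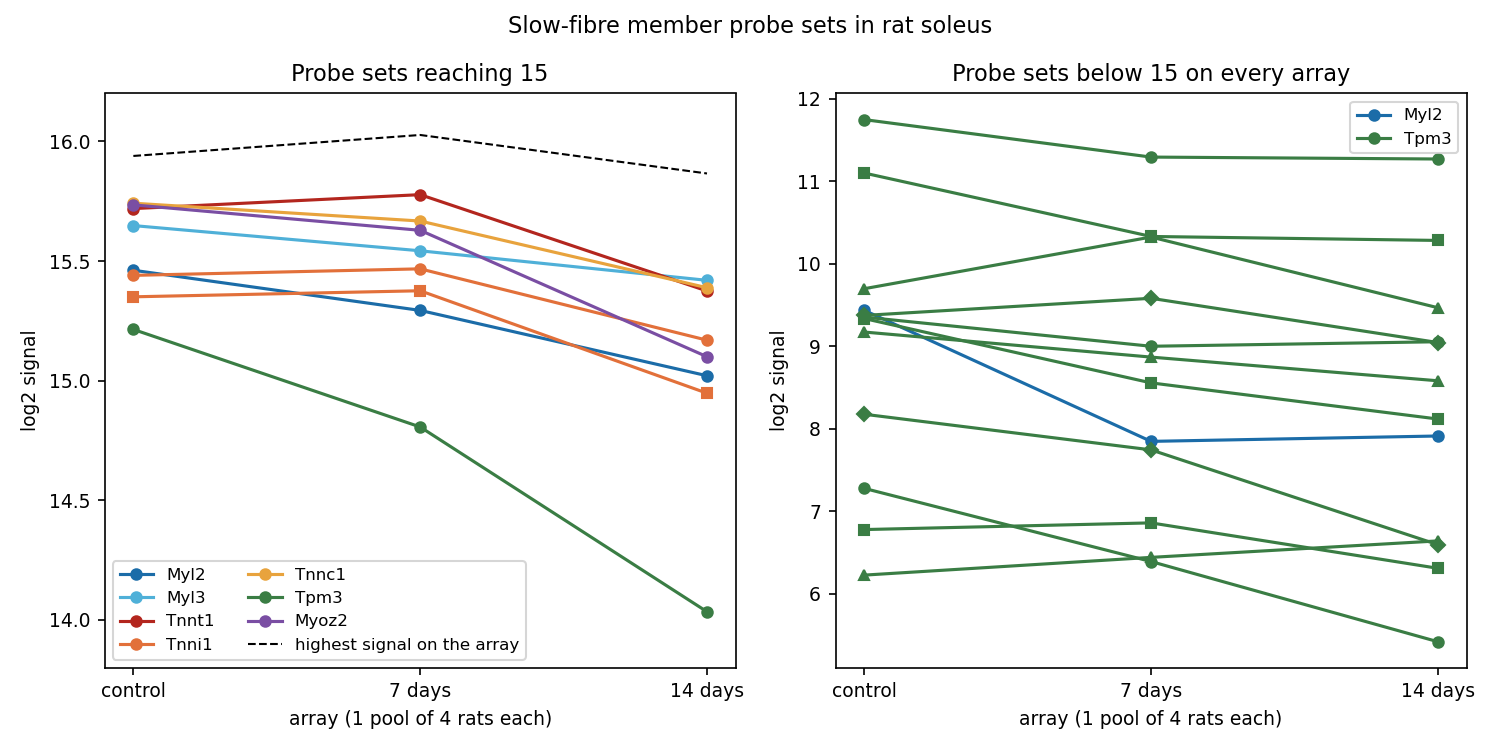
Log2 signal of the member probe sets on the 3 arrays (x axis), each of which measured 1 mixture of 4 samples, so there are no error bars. Each line is a probe set coloured by gene. Marker shapes vary among probe sets of the same gene, but they repeat among the dimmer Tpm3 probe sets. The left panel has the 8 bright probe sets with the highest signal of each array as a dashed line, and the right panel has the 12 dimmer ones. Every bright line is lowest at 14 days, where Tpm3 stands at 14.03.

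Over all 20 member probe sets, 4 were at least 1.5-fold lower at 7 days, where 10.2% of the 15396 measured probe sets of 1 gene were, and 8 at 14 days, where 10.7% were. The 4 were Myl2 and 3 probe sets of Tpm3, and the 8 were Myl2, Myoz2 and 6 of Tpm3. The probe sets of Tpm3 share their gene and are not separate observations: without them the counts were 1 of 8 and 2 of 8. Of the members, 1 was at least 1.5-fold higher at 7 days (background 9.18%) and none at 14 days (background 11.3%). Between the suspended pools 3 were 1.5-fold lower at 14 days (background 4.9%), all of Tpm3, and none was higher (background 6.56%). This count was 6 under median centring, with Myoz2 among them at -0.59, and 1 without the probe sets whose names end in _x_at or _s_at, which may also read related transcripts; this last setting was chosen after seeing the data.

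Among the 12 dimmer member probe sets the median log2 difference was -0.39 at 7 days and -0.53 at 14 days. Below control lay 8 at 7 days, against 49.9% of dimmer probe sets, and 11 at 14 days, against 48.6%. Of them 4 at 7 days (background 10.2%) and 6 at 14 days (background 10.7%) were at least 1.5-fold lower. From 7 to 14 days 9 of the 12 were lower (background 46.3%), 2 of them by 1.5-fold (background 4.9%), with a median of -0.33. That median was -0.12 with the floor at the 50th percentile and -0.036 without the _x_at and _s_at probe sets.

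**Figure D2:**
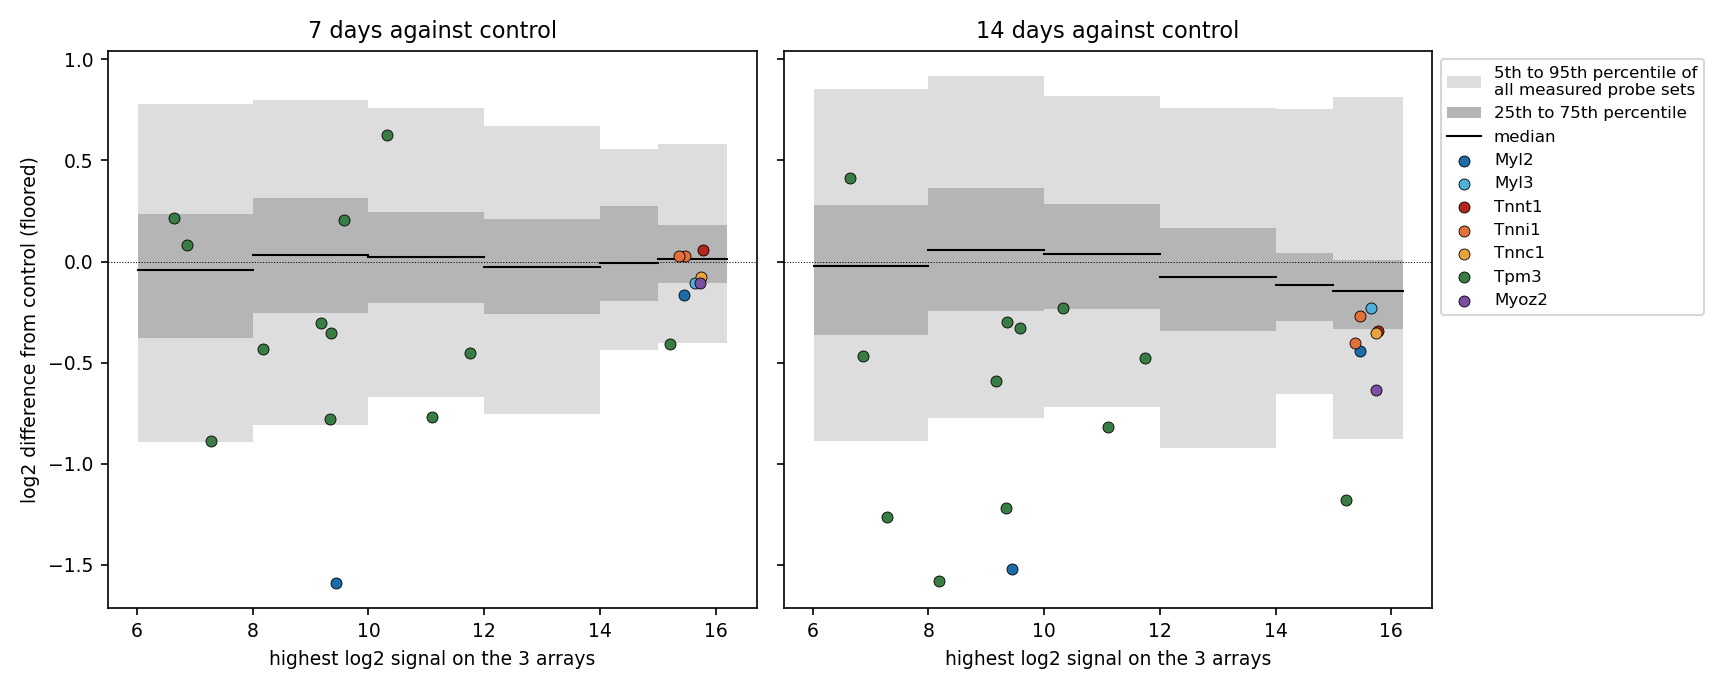
Log2 difference from control (y axis) at 7 days (left) and 14 days (right) against the highest log2 signal a probe set reached on the 3 arrays (x axis). Grey bands span the 5th to 95th and the 25th to 75th percentiles of all measured probe sets of 1 gene in each range of signal, the black line is their median, and points are the 20 member probe sets. At 14 days the median of the probe sets at 15 and above is -0.14, and the member points there lie below it.

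Of the light chains, Myl2, the regulatory light chain of slow and ventricular myosin, had probe sets at opposite ends of the scale. The bright one read a log2 signal of 15.46 in control, 15.29 at 7 days and 15.02 at 14 days, or 45117, 40163 and 33238 unlogged. Its signal was lower on each suspended array, at 89.0% of control at 7 days and 73.7% at 14 days. The dimmer one read 9.44, 7.85 and 7.91, or 694, 231 and 241 unlogged. It was 3.01-fold below control at 7 days and 2.87-fold below at 14 days, so its whole difference was present at 7 days and it differed by 0.065 between the suspended arrays. For the bright probe set the difference between those arrays was -0.27. The probe sets therefore had the same direction against control but not the same size or course, and which of them follows the transcript more closely was not tested.

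Myl3, the essential light chain of slow and ventricular myosin, was measured by 1 bright probe set with log2 signals of 15.65 in control, 15.54 at 7 days and 15.42 at 14 days. Its difference at 14 days was -0.23, the smallest among the bright probe sets and the size of 1 technical SD. The step from 7 to 14 days, -0.12, turned to 0.042 under quantile normalization, so no direction in the later week can be read for Myl3.

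The troponin subunits differed little from control at 7 days and by similar amounts at 14 days. Tnnt1, the slow subunit that binds tropomyosin, read 15.72 in control, 15.78 at 7 days and 15.37 at 14 days. Its value at 7 days was 104% of control and that at 14 days 78.8%. Tnni1, the slow inhibitory subunit, read 15.44, 15.47 and 15.17 with its brighter probe set. The other Tnni1 probe set read 15.35, 15.38 and 14.95. The 2 probe sets differed from control by 0.027 and 0.025 at 7 days and by -0.27 and -0.40 at 14 days. Under quantile normalization the 7-day differences of Tnni1 turned negative. Tnnc1, the calcium-binding subunit of slow and cardiac muscle, read 15.74, 15.67 and 15.39, which is 94.96% and 78.3% of control. All 4 troponin probe sets were thus lowest on the 14-day array, at 75.6% to 82.9% of control, by 1.2 to 1.7 technical SDs, and none reached 1.5-fold.

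Tpm3, the slow tropomyosin, gave the largest bright difference. Its bright probe set read 15.21 in control, 14.81 at 7 days and 14.03 at 14 days, or 38011, 28655 and 16780 unlogged. The signal was lower on each later array and stood at 75.4% of control at 7 days and 44.1% at 14 days, a 2.27-fold difference. Among the 84 bright probe sets of the array only 1 was lower against control at 14 days.

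The 11 dimmer Tpm3 probe sets did not share 1 course. At 14 days 10 of them lay below control and 1 above it, with a median of -0.48. The probe set 1371184_x_at read 8.18, 7.75 and 6.60, and was 2.99-fold lower at 14 days. The probe set 1398303_s_at read 9.34, 8.56 and 8.12, and was 2.33-fold lower. The probe set 1370450_at read 7.28, 6.39 and 5.42. The 14-day value lies under the floor, so the difference was at least 2.41-fold. The signal was lower on each later array for these 3 and for 1387918_at, as for the bright probe set. At 7 days 1371184_x_at and 1387918_at lay within 1 technical SD of control.

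Another pattern was seen in 1370339_at and 1383986_at. The former read 11.75, 11.29 and 11.27 and the latter 11.10, 10.33 and 10.28. Their differences from control, -0.45 and -0.77 at 7 days and -0.48 and -0.82 at 14 days, were reached by 7 days. The probe set 1387617_at, at 9.36, 9.002 and 9.06, had the same course, but its differences were only 1.04 and 0.86 technical SDs. Yet another course was seen in 1371239_s_at, which read 9.70, 10.33 and 9.47 and so stood 1.54-fold above control at 7 days and 1.17-fold below it at 14 days. These differences were 1.8 and 0.66 technical SDs. The probe set 1370340_x_at, at 9.38, 9.58 and 9.05, and 1389846_at, at 6.78, 6.86 and 6.31, were also above control at 7 days and below it at 14 days. Both lay within 1 technical SD of control on each day, so this course cannot be read with confidence for them. Of the remaining one, 1388268_at, the signals were 6.23, 6.44 and 6.64, close to the floor and within 1 technical SD. Of the 12 Tpm3 probe sets, 4 have names ending in _x_at or _s_at. The files do not say which tropomyosin transcript each probe set reads, and the part of the transcripts in these courses was not tested.

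**Figure D3:**
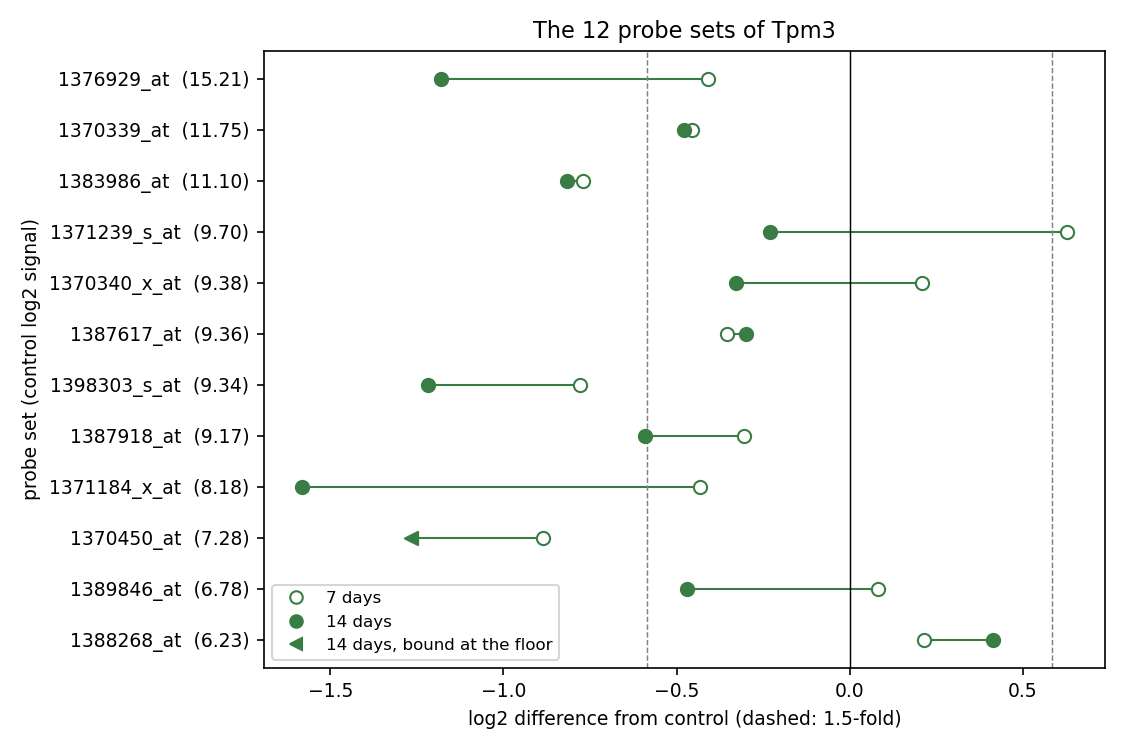
Log2 difference from control (x axis) of each of the 12 Tpm3 probe sets at 7 days (open) and 14 days (filled), ordered by control signal, which is given in brackets; 1 array per group, so no error bars. Dashed lines mark 1.5-fold and the triangle marks a bound at the floor. At 14 days 11 of the 12 lie left of control, spread from -1.58 to 0.41 with the last on the right.

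Myoz2, also called calsarcin-1, ties the phosphatase calcineurin to alpha-actinin at the Z-disc of slow and cardiac muscle. Its probe set read 15.73 in control, 15.63 at 7 days and 15.10 at 14 days, or 54524, 50650 and 35121 unlogged. The signal stood at 92.9% of control at 7 days and 64.4% at 14 days, a 1.55-fold difference that fell short of 1.5-fold under quantile normalization. The step in the later week, -0.53, was larger than that of the earlier week, -0.11. The difference at 14 days exceeded the technical SD 2.7 times.

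The fast counterparts of these genes stood mostly above control, and by 7 days already. The list holds 9 genes with 18 probe sets, of which 17 were measured. Of these, 7 were at least 1.5-fold higher at 7 days (background 9.18%) and 5 at 14 days (background 11.3%), and none was 1.5-fold lower than control. Probe sets of the same gene, such as those of Tpm1 and Myoz3, are not separate observations. Among the 9 bright probe sets of the list 8 stood above control on each suspended array. Of all 84 bright probe sets, 45 stood above control at 7 days and 22 at 14 days. The median log2 difference of the 9 was 0.34 at 7 days and 0.30 at 14 days. The bright slow-fibre probe sets had -0.090 and -0.38. Between the suspended arrays the 9 bright fast probe sets had a median of -0.055 and the 8 bright slow ones of -0.35. All of them were lower at 14 days, as were 89.3% of bright probe sets.

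By pairs of forms, the troponins parted as follows. Tnni2, the fast inhibitory subunit, read 15.07 in control, 15.64 at 7 days and 15.57 at 14 days. Tnnt3, the fast tropomyosin-binding subunit, read 14.86, 15.45 and 15.39 with its bright probe set. A dimmer Tnnt3 probe set read 6.81, 9.02 and 10.44 and was 4.62-fold and 12.4-fold above control, so for this gene too the dimmer probe set gave the larger difference. Tnnc2, the fast calcium-binding subunit, read 15.03, 15.37 and 15.33. The fast light chains Myl11 (also called Mylpf) and Myl1 differed from control by 0.15 and 0.13 at 7 days and by 0.11 and 0.035 at 14 days, less than 1 technical SD.

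Tropomyosins and myozenins differed by gene. Tpm1, the tropomyosin of fast and cardiac muscle, had 3 bright probe sets, 0.31 to 0.95 above control at 7 days and 0.25 to 0.95 above at 14 days. Its 3 dimmer measured probe sets differed among themselves, from -0.15 to 1.25 at 7 days and from -0.28 to 1.92 at 14 days. Tpm2, the beta-tropomyosin found in slow and fast fibres, differed by -0.062 and -0.13 with its bright probe set and by 0.091 and 0.026 with a dimmer one. Myoz1, the fast-fibre relative of Myoz2, read 13.37, 14.66 and 14.76 and was 2.45-fold and 2.63-fold above control. Myoz3 had a probe set at 11.22, 11.91 and 11.83, 1.62-fold and 1.52-fold above control. Its other probe set, below the floor in control, was at least 1.71-fold above it at 7 days and close to the floor at 14 days, at 6.07.

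**Figure D4:**
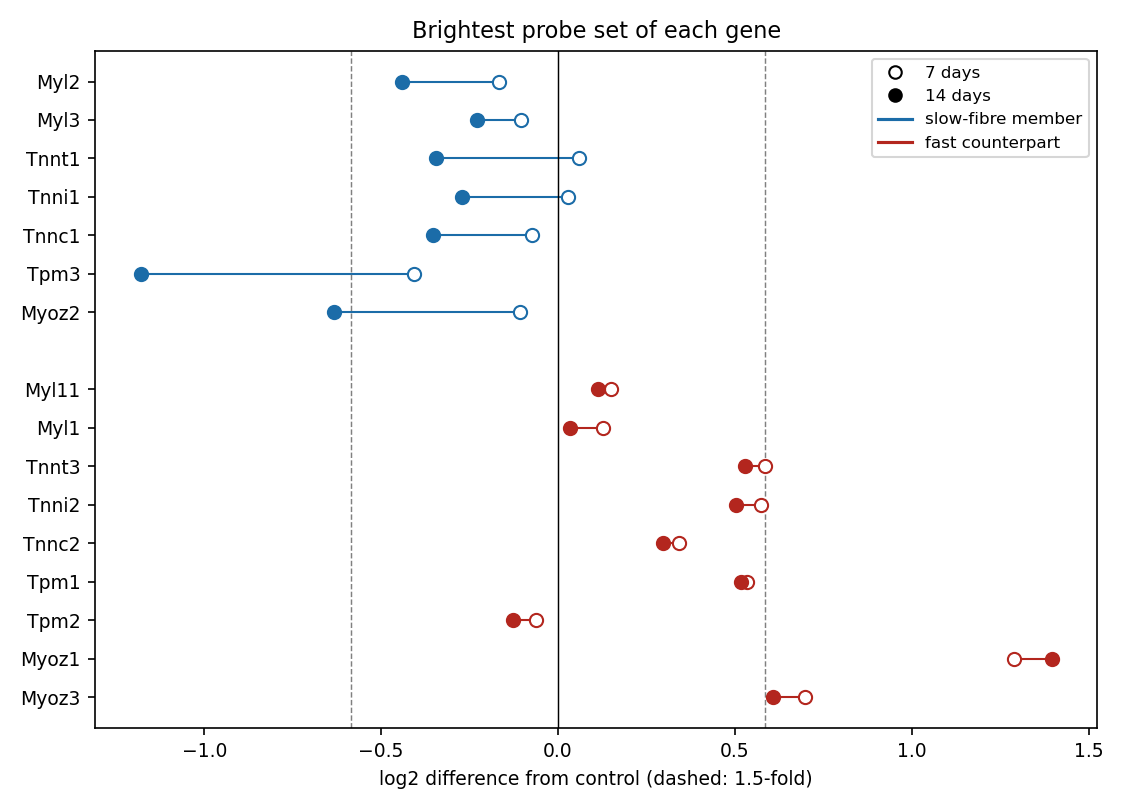
Log2 difference from control (x axis) of the brightest probe set of each slow-fibre gene (blue) and each fast counterpart (red) at 7 days (open) and 14 days (filled), 1 array per group and so without error bars. Dashed lines mark 1.5-fold. All 7 slow-fibre genes are left of control at 14 days, and of the 9 fast counterparts only Tpm2 is.

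Other relatives of the members were measured by 6 probe sets of 5 genes. Tnnt2, Tnni3 and Myl4 are cardiac or embryonic forms, whereas Tpm4 and Myl9 are not particular to heart or embryonic muscle. At 14 days 2 were at least 1.5-fold lower (background 10.7%) and 2 higher (background 11.3%). Above control lay 4 of the 6, those of Myl4, Tpm4 and Myl9, and the median was 0.33. Tnnt2, the cardiac troponin T that is also made in developing muscle, read 10.34, 8.69 and 9.15, which is 3.14-fold and 2.28-fold below control. Tnni3, the cardiac troponin I, read 9.09, 9.32 and 8.33 and was 1.69-fold below control at 14 days. Myl4, the embryonic and atrial essential light chain, read 9.89, 10.63 and 10.72, 1.67-fold and 1.77-fold above control. The probe sets of Tpm4 differed from control by 0.28 and 0.80 at 14 days, and that of Myl9 by 0.37.

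Of a list of 18 other slow-fibre genes, chosen as these lists were with earlier results of these data known, 24 probe sets of 16 genes were measured. At 7 days 5 were at least 1.5-fold lower (background 10.2%) and 1 higher (background 9.18%), with a median of -0.031. At 14 days 9 were lower (background 10.7%) and none higher (background 11.3%), with a median of -0.44. Over the 20 member probe sets the medians were -0.14 and -0.46, and over all measured probe sets 0 on each day. Among 10 non-member genes of the array that had a bright and a dimmer probe set, the dimmer one gave the larger absolute difference in 9 at 7 days and in 8 at 14 days, and the signs were alike in 7 and 9. The median absolute difference at 14 days was 0.39 for their bright and 0.99 for their dimmer probe sets. Myl2 followed this order, whereas for Tpm3 at 14 days the bright probe set differed by -1.18 and the next brightest by -0.48. The technical SD was larger at signals below 12, and its part in the larger differences of dimmer probe sets was not tested.

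Myoz2 binds calcineurin, and calcineurin signalling through NFAT and MEF2 factors is known to maintain slow-fibre genes. Of 16 genes of this signalling and of Myoz2's Z-disc partners, 32 probe sets were measured. At 14 days 7 were at least 1.5-fold lower (background 10.7%) and 6 higher (background 11.3%), with a median of -0.080. Rcan1, an inhibitor of calcineurin whose own transcription responds to calcineurin, read 13.78, 12.07 and 11.88 and was 3.29-fold and 3.75-fold below control. Rcan2 differed from control by -0.74 and -1.14 at 14 days with its probe sets. The catalytic subunit Ppp3ca had measured probe sets at 0.63 and 0.65 above control at 14 days, and another below the floor on every array. Those of the catalytic subunit Ppp3cb differed in direction, at 0.17, -0.86 and 0.61. The measured probe sets of the calcineurin subunit Ppp3r1 were at 0.81 and -0.019. Those of the NFAT and MEF2 genes ranged from -0.41 (Nfatc2) to at least 0.81 (Mef2d, below the floor in control). Both probe sets of the Z-disc partner Flnc were lower, at -0.74 and -1.89.

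By the pair of log2 differences from control, the genes nearest to the dimmer Myl2 probe set among 1956 genes that were at least 1.5-fold apart from control at 14 days were Ints1, Cenpx, Mypop, Rrad and Kpna6, at distances of 0.092 to 0.18. For the Tpm3 probe set 1370339_at they were Mrps2, LOC102554214, Pdk1, Mrps6 and Pola2, at distances of 0.12 to 0.13. This Tpm3 probe set was itself less than 1.5-fold apart from control at 14 days, so no candidate could have its pattern exactly. Each likeness rests on 2 differences that share the control array. The distances were below the technical SD of the member differences, 0.28 to 0.35, so the ranks cannot be read with confidence.

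Markers of slow and of fast fibres were both measured in control, with Myh7, the slow myosin heavy chain, at 15.81. Signals of different probe sets cannot be compared, so they do not give the share of slow fibres. The summed unlogged signal of 6 slow-fibre markers came to 237697 on the control array, 208677 on the 7-day and 171908 on the 14-day array. By brightest probe set, 3 of them were at least 1.5-fold lower at 14 days (background 10.7%). Ankrd2, Csrp3 and Casq2 then stood at 34.8%, 53.4% and 25.9% of control, and Myh7, Atp2a2 and Mybpc1 at 90.5%, 90.5% and 93.5%. The values of Myh7 and Atp2a2 come from bright probe sets. A dimmer Myh7 probe set stood at 42.5% of control at 14 days. With values raised to the floor, the dimmer Atp2a2 probe sets ranged from 53.3% to 131%. The sums of 8 fast-fibre markers were 102366, 160347 and 259494. Of these markers 5 were at least 1.5-fold higher at 14 days (background 11.3%), Myh4, Actn3, Mybpc2, Pvalb and Atp2a1. Casq1 was then at 0.49, and Myh1 and Myh2 were below control, at -0.56 and -0.070. Of 8 heart markers, 7 were on the array by name, and Nppb and Myl7 were below the floor on every array, as was the adipocyte marker Lep. The 6 macrophage markers summed to 1.58 times control at 7 days and 1.43 times at 14 days, and the 4 fibroblast markers to 1.23 and 1.55 times. The adipocyte sum, 1.24 and 0.88 times control, is mostly Fabp4, while Adipoq was 1.86-fold and 1.53-fold and the brighter Plin1 probe set 2.19-fold and 1.91-fold above control. The summed endothelial, smooth muscle and red cell markers lay between 0.82 and 1.21 times control. No marker was at 0 on any array. The part of other cells in the differences of the slow-fibre genes was not tested.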

How the data were processed

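Biotin-labelled cRNA was made from 6 ug of total RNA and hybridised to an Affymetrix rat array, per the labels' protocols. The deposited values are log2 signals per probe set; their unlogged means, trimmed by 2% at each end, are 500.25, 500.248 and 500.239, so the authors scaled the arrays alike. The program is not given in the sources used here. Gene names came from the platform annotation table, in which 20826 probe sets have 1 gene, 436 several and 9780 none.

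Values below log2 6.01, the 40th percentile, were raised to that floor, and a probe set counted as measured when 1 array reached it. Differences of log2 signals were taken between arrays, with no test, since each group has 1 array, whose number limits the precision. Probe sets at least 1.5-fold apart were counted. Every member probe set is reported; other genes come from lists, as counts with values for counterparts and for some members at least 1.5-fold apart. The members and lists were chosen with earlier results of these data known. The genes of nearest pattern were taken as the 5 of smallest Euclidean distance. Symbols absent from the array were sought through RefSeq synonyms, which matched Mylpf to Myl11. Alternatives were quantile normalization, median centring, other floors, a 2-fold threshold and a brightness limit of 14. Calculations used Python 3.11.15, pandas 2.3.3 and NumPy 2.4.6 and were tested on simulated data.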

Additional observations from a re-analysis of the deposited data

Results flagged for a closer look

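For 6 member probe sets the difference from control had opposite signs on the 2 suspended arrays, and each was lower at 14 than at 7 days. The log2 differences between 14 and 7 days were -0.40 for Tnnt1 1370412_at, -0.30 and -0.43 for Tnni1 1371339_at and 1386873_at, and -0.86, -0.54 and -0.55 for Tpm3 1371239_s_at, 1370340_x_at and 1389846_at. With 1 array per group these contrasts were not tested, and the 7-day differences of the troponin probe sets were at most 0.058. Tpm3 1370340_x_at and 1389846_at lay within 1 technical SD of control on both days, and 1371239_s_at did so at 14 days. Under quantile normalization the Tnni1 probe sets were below control on both days.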

How the results depend on the processing

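With a 2-fold threshold, the counts of lower member probe sets were 1 at 7 days, 5 at 14 days and 1 for 14 against 7 days. Median centring raised the count for 14 against 7 days from 3 to 6, with Myoz2 at -0.59. Quantile normalization took Myoz2 at 14 days to -0.56, short of 1.5-fold. The floor at the 50th percentile took the dimmer median for 14 against 7 days from -0.33 to -0.12. Alternatives chosen after seeing the data left out Tpm3, which gave counts of 1, 2 and 0 and dimmer medians of -1.59, -1.52 and 0.065, all of a single Myl2 probe set, or left out the _x_at and _s_at probe sets, which gave a count of 1 and a dimmer median of -0.036 for 14 against 7 days. The bright median at 14 days was -0.29 under quantile normalization and -0.37 under median centring; for 14 against 7 days quantile normalization gave -0.24 against -0.35. Under quantile normalization 59 single differences moved by less than 1 technical SD. The exception was Myl3 for 14 against 7 days, at 0.042. Under median centring all 60 moved by less than 1 SD. That outcome was set in advance, because centring shifts the differences of a comparison alike and by less than 1 SD. The technical SD at signals of 12 and above was pooled over a wide range after values were seen, because the narrower ranges held few pairs; with those ranges the bright median of -0.24 and further single differences had counted as moved by more than 1 SD. Adding probe sets of several genes changed nothing, as none holds a member. Leaving out replicates was not run, since each group has 1 array. No paired analysis was possible because each group has 1 array. Signals near the top of the scale limit the differences of the bright probe sets, and signals near the floor those of the dimmest.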
